A study of Mus musculus with 4 samples.

Results

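The mitochondrial ribosomal protein genes are the nuclear genes that encode the proteins of the ribosome inside mitochondria, named Mrpl for the large subunit and Mrps for the small one. They were taken as all mouse symbols that begin with Mrpl or Mrps followed by a number. This gave 76 of the 18783 genes with a single symbol on the array, 48 of them named for the large subunit and 28 for the small. In RefSeq 84 mouse symbols fit the same pattern, 6 of which are pseudogenes. Mrpl23, Mrps36 and the 6 pseudogenes had no named probe set among the values used here.

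Hearts of mice lacking the transcription factor MEF2A (Mef2a-/-, called KO) were set against hearts of Mef2a+/+ mice (called WT). The design has 4 groups, KO atria, WT atria, KO ventricles and WT ventricles, each measured on 1 array. Every array carried total RNA pooled from 7 mice of 2 months, males and females together. A pooled array gives 1 value per gene and group with no replicate error, so every difference here describes these pools and carries no test. The sources used here do not give which part of Mef2a was deleted.

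The mitochondrial ribosome has a large subunit, which joins amino acids into protein, and a small subunit, which reads the messenger RNA. Its ribosomal RNAs are encoded by mitochondrial DNA, while its proteins are made in the cytosol and imported. It translates only the messages of mitochondrial DNA, which encode core subunits of the oxidative phosphorylation complexes. Heart muscle is rich in mitochondria and draws most of its ATP from those complexes. Part of the proteins descend from proteins of the bacterial ribosome, and the rest are found in mitochondria only.

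Values are log2 intensities, and the median probe set value lay between 5.66 and 5.75 on the 4 arrays. The interquartile range was 2.97 on the KO atria array and between 3.18 and 3.21 on the others. The median of all values, 5.71, served as a floor: a gene entered a comparison when the brighter of its 2 arrays reached it. All 5 atrial markers (Nppa, Sln, Myl7, Myl4, Bmp10) were past 2-fold higher in atria in both genotypes, and the ventricular marker Irx4 had an atrial log2 ratio of −3.79 in KO and −3.43 in WT. The cardiomyocyte markers Tnnt2, Myh6 and Actc1 stood above 12 on every array. Mef2a itself read 10.41 in KO atria, 10.32 in WT atria, 10.34 in KO ventricles and 10.28 in WT ventricles. Its signal was therefore not lower on the KO arrays and does not check the genotype labels.

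Most of the mitochondrial ribosomal protein genes were well above the floor. Of the 76, 69 reached it on all 4 arrays, 3 on 3 arrays (Mrpl47, Mrps12, Mrps17) and 3 on 2 arrays (Mrpl22, Mrps26, Mrps30). Mrps33, a small subunit protein found in mitochondria only, was the exception, with 4.12 in KO atria, 4.13 in WT atria, 3.82 in KO ventricles and 3.75 in WT ventricles. It stayed below the floor on every array and entered no comparison. The median over all 76 was 7.56 in KO atria, 7.51 in WT atria, 8.14 in KO ventricles and 8.09 in WT ventricles. Over all genes the corresponding medians were 5.82, 5.80, 5.75 and 5.77. The step between chambers was therefore present in these genes and not in the median of all genes, while the genotypes lay close together within each chamber. In bulk tissue, fewer cells of a type and less RNA per cell cannot be told apart.

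**Figure D1:**
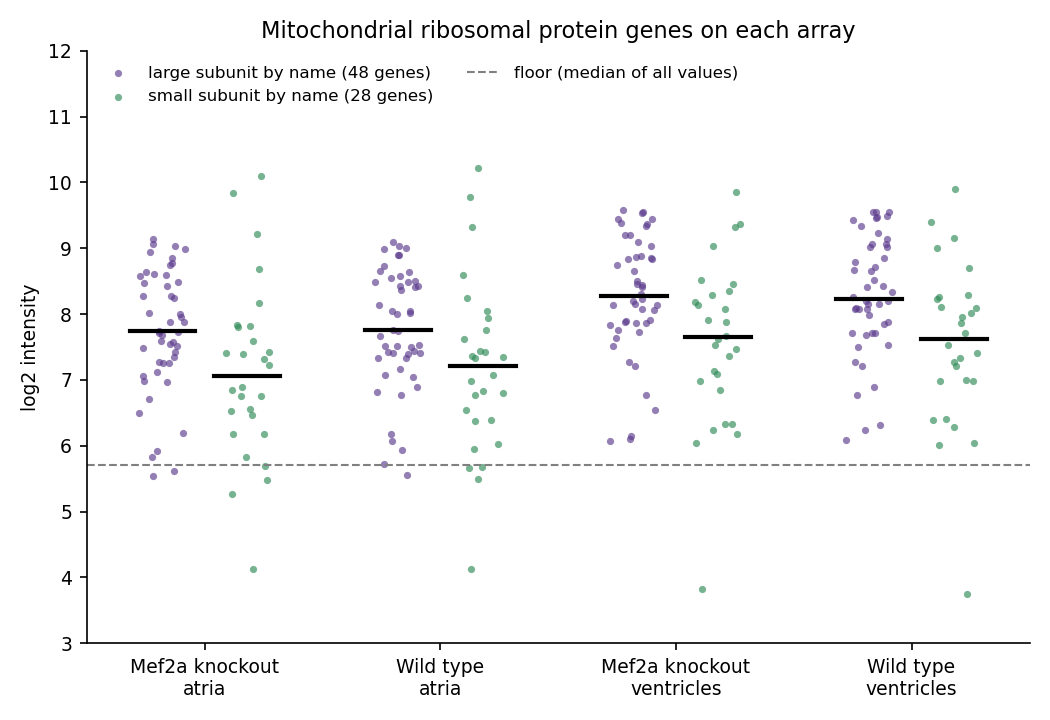
Log2 intensity (vertical axis) of the 76 mitochondrial ribosomal protein genes on each of the 4 arrays, large subunit genes in purple and small subunit genes in green. Black bars are medians over the genes and the dashed line is the floor of 5.71. Both subunits sit lower on the 2 atrial arrays than on the 2 ventricular arrays, and the green points near 4 are Mrps33.

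The plot of levels by array shows the same step in both subunits. Large subunit genes had a median of 7.74 in KO atria and 7.75 in WT atria, against 8.27 in KO ventricles and 8.23 in WT ventricles. Small subunit genes had 7.05 and 7.20 in KO and WT atria, against 7.65 and 7.62 in KO and WT ventricles. Intensities of different probe sets depend on their probes, so the 2 subunits are read here only between arrays and not against each other. Summed on the linear scale, the 76 genes gave 18351 in KO atria and 18683 in WT atria, against 24886 in KO ventricles and 24850 in WT ventricles.

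WT atria against WT ventricles asked which transcripts are enriched in a chamber. Of 75 mitochondrial ribosomal protein genes above the floor, 70 were lower in WT atria than in WT ventricles and 5 were higher. Their median log2 ratio was −0.52, with the middle 50% between −0.65 and −0.36. Over the 10035 genes above the floor the median was −0.01, and 5170 were lower. Past 2-fold, 4 of the 75 were lower, where 2.21 percent of all genes above the floor passed, and 1 was higher, where 3.89 percent passed. Most members were thus lower in atria, and most by less than 2-fold.

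The KO pair, which was not among the comparisons the study states, gave a similar picture. Of 75 genes 72 were lower in KO atria than in KO ventricles and 3 were higher, while 5608 of all 10121 genes above the floor were lower. The median was −0.56, with the middle 50% between −0.71 and −0.32, against −0.05 over all genes. Past 2-fold, 6 were lower, with 2.85 percent of all genes as background, and 1 was higher, with 3.46 percent. Under median centring 10 were lower past 2-fold, and the median of all genes moved to −0.14. The share of all genes past 2-fold under that scaling is not given here. The 2 chamber comparisons share no array, and 70 members were lower in atria in both genotypes, 3 were higher in both and 2, Mrps21 and Mrps10, had opposite signs. The 3 were Mrps6, Mrpl52 and Mrpl48, whose KO ratio of 0.0048 turned to −0.09 under median centring. Across the 75 genes, which share libraries and are not independent, the KO and WT chamber ratios had a Pearson correlation of 0.86 and a Spearman correlation of 0.70. Without Mrps6 the Pearson value was 0.74. Over all genes above the floor in both pairs the Pearson correlation was 0.90 and the Spearman correlation 0.81.

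**Figure D2:**
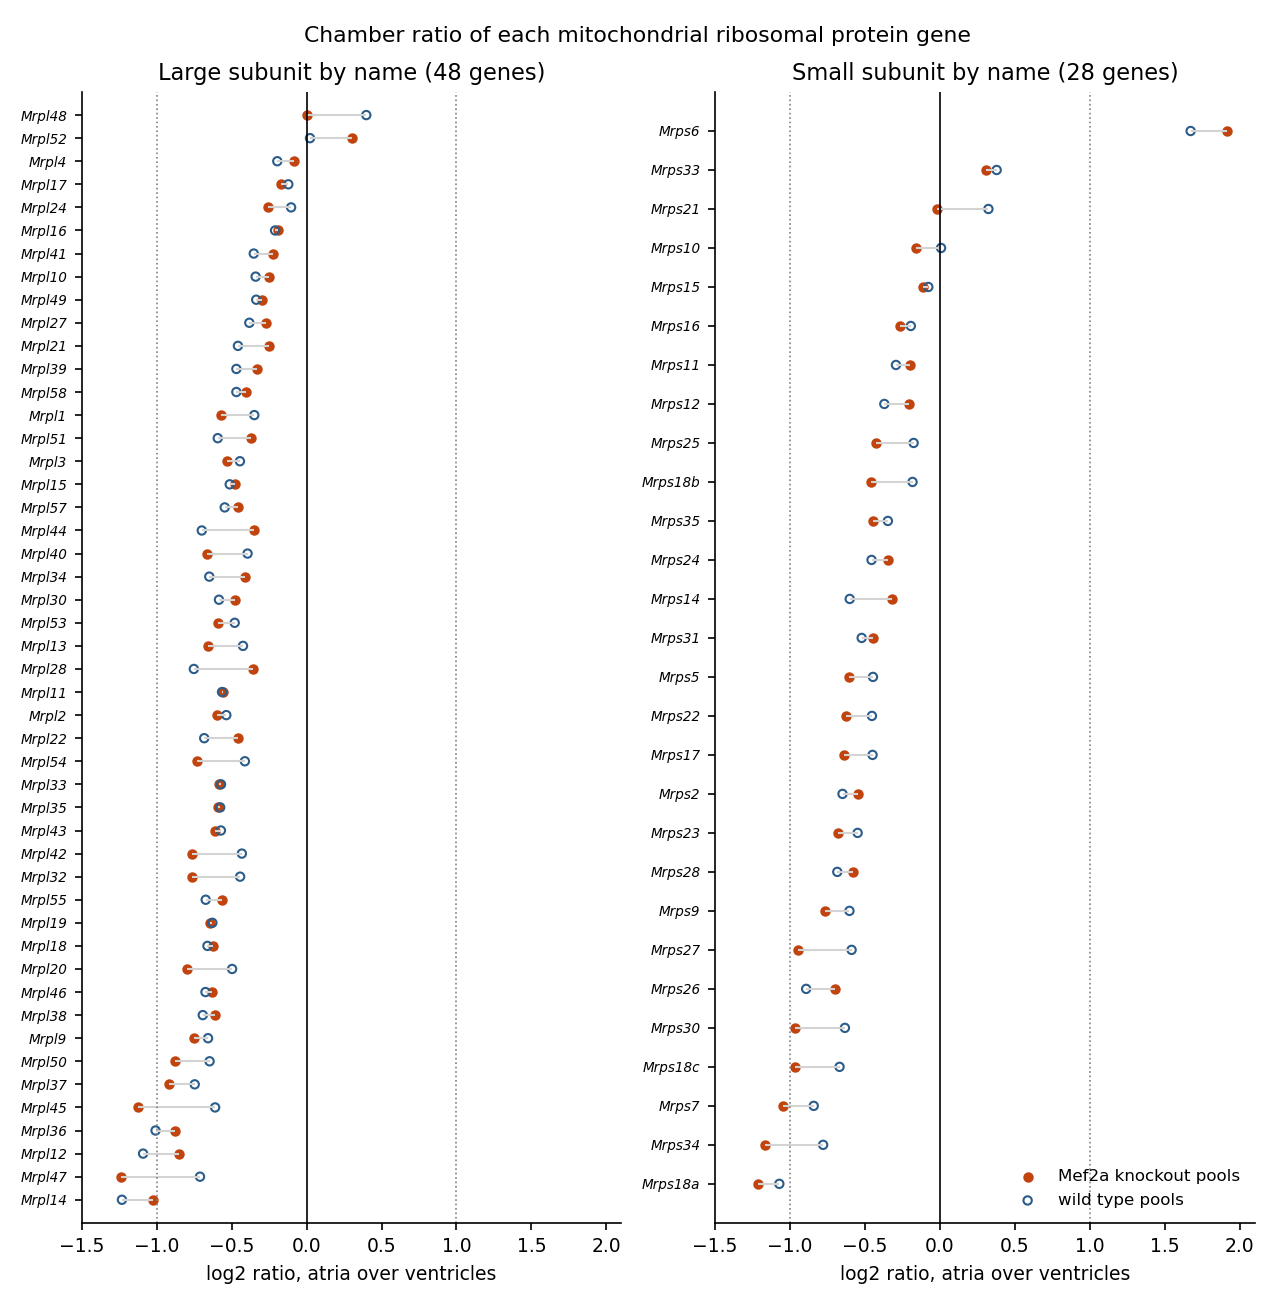
Log2 ratio of atria over ventricles (horizontal axis) for every mitochondrial ribosomal protein gene, large subunit left and small subunit right, ordered by the mean of the KO (filled) and WT (open) ratios. Solid lines mark 0 and dotted lines 2-fold. Nearly all points lie left of 0, and Mrps6 lies alone past 2-fold on the right at 1.91 in KO and 1.67 in WT. Mrps33, below the floor on every array, is also plotted, at 0.31 in KO and 0.38 in WT.

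Mrps6, the mitochondrial counterpart of bacterial ribosomal protein S6 of the small subunit, went the other way. It read 10.09 in KO atria and 9.78 in WT atria, against 8.18 in KO ventricles and 8.11 in WT ventricles. Both atrial arrays were above both ventricular arrays, by 3.77-fold in KO and by 3.19-fold in WT. Among all genes above the floor it ranked 102 from the highest of 10121 in KO and 159 of 10035 in WT. Mrps6 overlaps Slc5a3, which encodes a sodium-coupled myo-inositol transporter, and the RefSeq starts of the pair lie 14 bases apart on the same strand. Slc5a3 read 8.48 in KO atria and 8.02 in WT atria, against 5.96 in KO ventricles and 5.98 in WT ventricles, or 2.53 and 2.04 higher in atria on the log2 scale in KO and WT. The 2 overlapping genes were therefore high and low on the same arrays. Whether their probe sets read shared transcripts was not tested.

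The stretch that both starts share is shown because it is the promoter window of the 1 member with a large ratio in the opposite direction. It covers the 150 bases before the Mrps6 start in RefSeq's table of mouse assembly GRCm38.p6, chr16:92058186-92058335, plus strand, and has no capitals because none of the searched motifs lies in it.
Mrps6: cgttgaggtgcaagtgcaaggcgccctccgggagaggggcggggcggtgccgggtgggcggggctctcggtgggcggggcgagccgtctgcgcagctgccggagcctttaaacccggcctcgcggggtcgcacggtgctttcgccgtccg

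The other members that were not lower in atria were few and small in ratio. Mrpl52, a large subunit protein of mitochondria only, read 8.75 in KO atria and 8.43 in WT atria, against 8.44 in KO ventricles and 8.40 in WT ventricles. Its ratio was 0.31 in KO and 0.02 in WT, and the WT value turned to −0.01 under median centring. Mrpl48, also of the large subunit and of mitochondria only, read 8.24 in KO atria and 8.55 in WT atria, against 8.23 in KO ventricles and 8.15 in WT ventricles. WT atria alone stood apart for Mrpl48, at 0.40 above WT ventricles. The gene overlapping it, Rab6a, which encodes a small GTPase of Golgi traffic, had atrial ratios of 0.04 in KO and 0.30 in WT. Mrps21, the counterpart of bacterial S21, read 9.83 in KO atria and 10.22 in WT atria, against 9.85 in KO ventricles and 9.89 in WT ventricles. Here too WT atria were the highest array, and the KO ratio of −0.02 turned to 0.07 under quantile normalization. Mrps10, the counterpart of bacterial S10, stood at 0.01 in WT and −0.16 in KO.

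Among the genes lower in atria, 2 passed 2-fold in both genotypes, Mrpl14 and Mrps18a. Mrpl14, the counterpart of bacterial L14 at the face between the subunits, read 7.71 in KO atria and 7.42 in WT atria, against 8.74 in KO ventricles and 8.65 in WT ventricles. It was 2.04-fold lower in KO atria and 2.35-fold lower in WT atria, each against ventricles of the same genotype, and in KO it was under 2-fold with quantile normalization (−0.94) and lowess centring (−0.92). The whole gene extents of Mrpl14 and of Tmem63b, which encodes a mechanosensitive ion channel, overlap in RefSeq. The starts in the promoter table lie 131 bases apart on opposite strands, and from them the 2 genes run away from each other. The atrial ratio of Tmem63b was −1.19 in KO and −0.98 in WT, so both genes of this pair were low in atria.

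Mrps18a is 1 of 3 mammalian counterparts of bacterial S18. In the human and porcine ribosome structures its protein lies in the large subunit despite its name. It read 7.83 in KO atria and 7.94 in WT atria, against 9.04 in KO ventricles and 9.01 in WT ventricles, a log2 ratio of −1.21 in KO and −1.07 in WT. The related Mrps18b and Mrps18c were lower in atria as well, Mrps18b at −0.46 in KO and −0.18 in WT and Mrps18c at −0.97 in KO and −0.67 in WT. Rsph9, a cilia gene that overlaps Mrps18a, had ratios of 0.44 in KO and 0.20 in WT, and read below the floor on every array.

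Mrpl12 and Mrpl36 passed 2-fold in WT only. Mrpl12 is the counterpart of bacterial L7/L12, the stalk protein that receives translation factors. It read 8.60 in KO atria and 8.41 in WT atria, against 9.45 in KO ventricles and 9.50 in WT ventricles. The log2 ratio was −0.85 in KO and −1.09 in WT. Mrpl36, the counterpart of the small bacterial protein L36, read 7.95 in KO atria and 8.0 in WT atria, against 8.83 in KO ventricles and 9.01 in WT ventricles. Its ratio was −0.88 in KO and −1.01 in WT, and the WT value was under 2-fold with lowess centring (−0.97). Whether the chamber ratio of any of these genes differs between genotypes could not be tested with 1 array a group.

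Mrpl47, Mrps34, Mrpl45 and Mrps7 passed 2-fold in KO only. Mrpl47, the counterpart of bacterial L29 near the exit of the peptide tunnel, read 5.54 in KO atria and 6.19 in WT atria, against 6.77 in KO ventricles and 6.90 in WT ventricles. The KO atria value was the lowest of the 4 and lay below the floor, where RMA compresses differences. Its chamber ratio was −1.24 in KO and −0.71 in WT. Mrpl45, a protein of mitochondria only that anchors the ribosome at the inner membrane, read 6.71 in KO atria and 6.89 in WT atria, against 7.84 in KO ventricles and 7.50 in WT ventricles. Here the KO pair differed by −1.12 and the WT pair by −0.61, with KO atria below WT atria and KO ventricles above WT ventricles.

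Mrps34, a small subunit protein of mitochondria only, read 6.46 in KO atria and 6.55 in WT atria, against 7.63 in KO ventricles and 7.33 in WT ventricles. Its ratio was −1.16 in KO and −0.78 in WT. Mrps7, the counterpart of bacterial S7 in the head of the small subunit, stood at −1.04 in KO and −0.84 in WT. These genes were lower in atria in both genotypes, and what differed was the side of the 2-fold line. Further low members in WT were Mrpl28 and Mrpl37, both at −0.75, and Mrps26 at −0.89, whose atrial values of 5.47 in KO and 5.50 in WT lay below the floor.

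**Figure D3:**
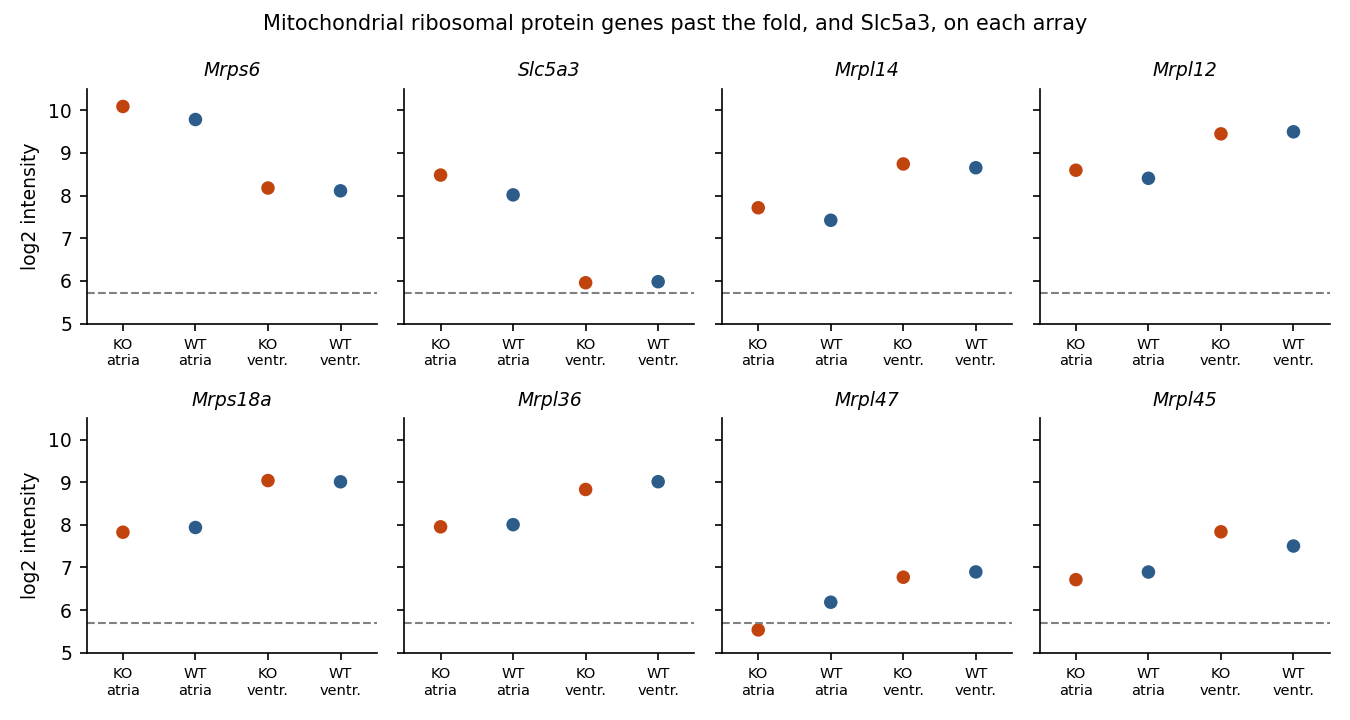
Log2 intensity (vertical axis) of 7 mitochondrial ribosomal protein genes and Slc5a3 on each array (KO orange, WT blue). The dashed line is the floor of 5.71. Mrps6 and Slc5a3 are high on both atrial arrays, the other 6 genes are low there, and Mrpl47 falls below the floor in KO atria only.

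Overlap with other genes was common in this family. Of the 76 genes 25 overlap another gene in RefSeq, and 20 of these overlap a gene with a named probe set here. Among 50 members without such an overlap the median chamber ratio was −0.54 in KO and −0.47 in WT, so the lower level in atria was also present in genes with no overlapping partner. Without the overlapping genes no member was past 2-fold higher in atria. Those past 2-fold lower were 3 in KO, Mrpl47, Mrps34 and Mrpl45, and 2 in WT, Mrpl12 and Mrpl36. Across all 76 genes, Mrps33 and Mrps6 included, chamber ratio and mean level had a Pearson correlation of 0.07 in KO and 0.04 in WT. The Spearman correlation was 0.07 in KO and 0.06 in WT.

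The large and the small subunit had nearly the same chamber ratio. In KO the median was −0.57 over 48 large subunit genes and −0.55 over 27 small subunit genes, and in WT it was −0.54 and −0.46. Large minus small was −0.02 in KO and −0.08 in WT. When Mrps30 and Mrps18a were moved to the large subunit, where their proteins sit in the structure, it was −0.12 and −0.10. Both differences are small beside the spread within either subunit, whose middle 50% in WT ran from −0.66 to −0.41 for the large and from −0.64 to −0.24 for the small. Of the large subunit genes 46 of 48 were lower in atria in each genotype, and of the small subunit genes 26 of 27 in KO and 24 of 27 in WT.

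Medians were also close between genes of different descent. Genes with a bacterial counterpart had a median chamber ratio of −0.54 in KO and −0.50 in WT over 44 genes. Genes found in mitochondria only had −0.61 in KO and −0.53 in WT over 28 genes. The 28 large subunit genes with a bacterial counterpart were all lower in atria in both genotypes, from −1.24 to −0.08 in KO and from −1.23 to −0.10 in WT.

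KO atria against WT atria addressed what the loss of MEF2A changes in that chamber. Of 72 members above the floor 28 were higher, 43 (59.7%) were lower and Mrpl11 was at 0.00, where 56.9% of all genes above the floor were lower. The median was −0.05, against −0.03 over all 10051 genes. No member was 1.5-fold higher, where 1.02 percent of all genes passed, and 1 was 1.5-fold lower, Mrpl47, where 2.01 percent passed. The sign of the median turned with the scaling, to 0.02 under quantile normalization, with 41 higher and 31 lower, and to 0.0034 under lowess centring, with 38 higher and 34 lower. The family as a whole thus stood close to all other genes in this comparison.

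Mrpl47 was 1.57-fold lower in KO atria (5.54) than in WT atria (6.19). With a floor at the 75th percentile it entered no count. The next lowest were Mrps21 at −0.38, Mrpl42 at −0.37, Mrpl48 at −0.31 and Mrpl54 at −0.28. Mrpl42 and Mrpl54, large subunit proteins of mitochondria only, read 8.27 and 7.73 in KO atria, against 8.64 and 8.01 in WT atria. Their ventricular arrays were close, with Mrpl42 at 9.04 in KO and 9.07 in WT. Mrps30 was at −0.39, but both of its atrial values were below the floor. The highest were Mrpl52 at 0.32, Mrps6 at 0.31, Mrpl14 at 0.29, Mrpl34 at 0.24 and Mrpl10 at 0.22. Mrpl10, the counterpart of bacterial L10 at the base of the stalk, read 8.95 in KO atria and 8.72 in WT atria.

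KO against WT ventricles gave a narrower spread, in these genes as in all genes. Of 75 members 38 were higher and 37 (49.3%) lower, where 48.6% of all genes were lower, with a median of 0.00, against 0.00 over all 9713 genes, and its sign turned under quantile normalization (−0.015). The counts were 33 higher and 42 lower under that scaling, and 45 higher and 30 lower under median centring. None was 1.5-fold higher, where 0.515 percent of all genes passed, and none was 1.5-fold lower, where 0.69 percent passed. All ratios lay between −0.23 and 0.33. The highest were Mrpl45 at 0.33, Mrps10 at 0.32 and Mrps34 at 0.30. Mrps10 read 6.33 in KO ventricles and 6.01 in WT ventricles, both near the floor. Mrps23 and Mrps7 followed at 0.21 and 0.19. The lowest were Mrpl44 and Mrpl27 at −0.23, Mrps26 at −0.22, Mrpl39 at −0.20 and Mrpl46 at −0.19. Mrpl44, which carries a fold of the RNase III type, read 6.54 in KO ventricles and 6.77 in WT ventricles. These values stay within less than 1.5-fold and have no replicate to be set against.

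**Figure D4:**
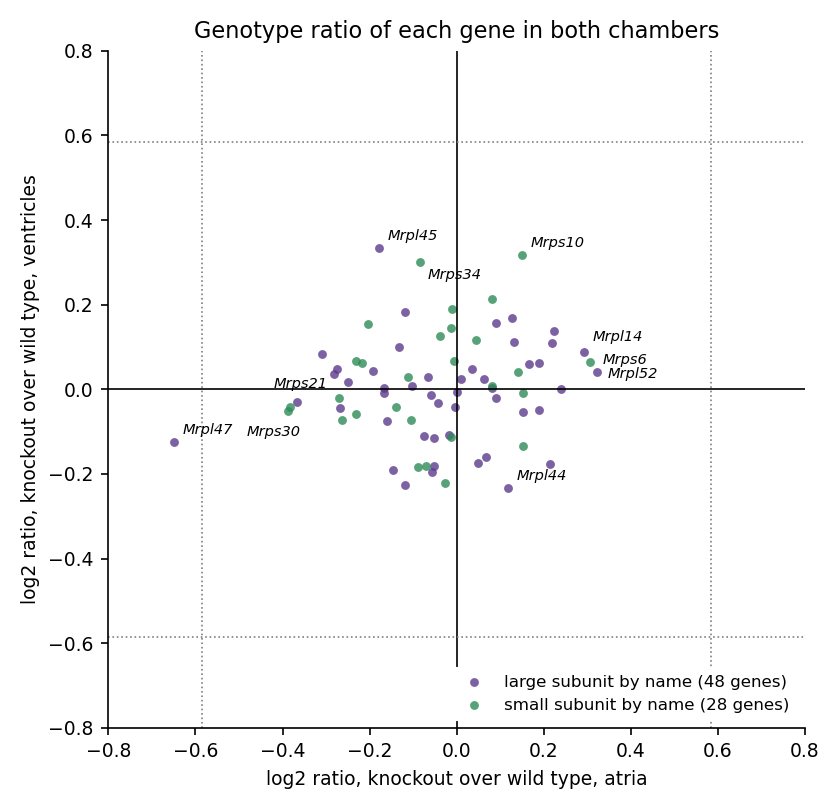
Log2 ratio of KO over WT in atria (horizontal axis) and in ventricles (vertical axis) for the 76 mitochondrial ribosomal protein genes, large subunit purple and small subunit green. Dotted lines mark 1.5-fold. The points gather around 0 with no clear slope, wider along the atrial axis (SD 0.19 over 72 genes) than along the ventricular axis (SD 0.12), and Mrpl47 is the 1 point past a dotted line. The SD over all genes above the floor in both comparisons was 0.25 in atria and 0.17 in ventricles.

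The plot of genotype ratios in both chambers shows that members did not keep their order between chambers. Of 72 genes 19 were higher in both chambers, 24 were lower in both and 28 had opposite signs. The same sign was held by 59.7% of the members and by 57.7% of all genes above the floor in both comparisons. The Pearson correlation over the members was 0.14 and the Spearman correlation 0.15, against 0.36 and 0.26 over all genes. The genotype ratio in atria minus that in ventricles ran from −0.52 for Mrpl47 to 0.39 for Mrpl28. Mrpl28, the counterpart of bacterial L28, read 7.55 in KO atria and 7.33 in WT atria, against 7.91 in KO ventricles and 8.08 in WT ventricles.

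The subunits did not separate by genotype. In atria the large subunit median was −0.04 over 47 genes and the small subunit median −0.07 over 25 genes. In ventricles both were at 0.00 and 0.01, over 48 and 27 genes. Genes with a bacterial counterpart stood at −0.01 in atria and −0.01 in ventricles, and genes of mitochondria only at −0.09 and 0.01.

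Of the mitochondrial ribosomal proteins named otherwise, 4 had a probe set, and all 4 were lower in atria in both genotypes. Ptcd3, a pentatricopeptide repeat protein of the small subunit, read 7.59 in KO atria and 8.03 in WT atria, against 8.89 in KO ventricles and 8.81 in WT ventricles. Its chamber ratio of −1.30 in KO was the 1 value past 2-fold among the 4 genes, and in WT it was −0.78. Chchd1 of the small subunit stood at −0.64 in KO and −0.71 in WT, Gadd45gip1 of the large subunit at −0.52 and −0.65, and Dap3, a GTP-binding protein of the small subunit, at −0.29 and −0.39. Their genotype ratios lay between −0.43 (Ptcd3) and 0.17 (Gadd45gip1) in atria.

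Other parts of mitochondrial gene expression were lower in atria too. Over 15 genes of mitochondrial transcription and RNA handling the median chamber ratio was −0.49 in KO and −0.45 in WT, and all 15 were lower in both. Lrpprc, which stabilises mitochondrial messenger RNAs, was past 2-fold in both genotypes, at −1.09 in KO and −1.21 in WT. Tfam, which packages and transcribes mitochondrial DNA, read 5.97 in KO atria and 6.57 in WT atria, against 7.07 in KO ventricles and 7.05 in WT ventricles. Its log2 ratio was −0.60 for KO over WT atria, past 1.5-fold, and −1.09 for KO atria over KO ventricles. Fastkd1 was past 2-fold in KO only, at −1.01.

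Mitochondrial translation factors had a median of −0.68 over 14 genes in KO and −0.45 over 13 in WT, with 13 of 14 and 11 of 13 lower in atria. Taco1, an activator of translation of a cytochrome oxidase message, was at −1.16 in KO and −0.80 in WT. Tufm, the elongation factor that brings aminoacyl-tRNA to the ribosome, was higher in atria in both genotypes, and Mtfmt, which formylates the initiator tRNA, was at −0.17 in KO and 0.03 in WT. Tufm read 7.50 in KO atria and 6.62 in WT atria, against 6.40 in KO ventricles and 6.27 in WT ventricles. KO atria stood above the other 3 arrays, with 0.88 over WT atria and 1.10 over KO ventricles.

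The assembly factors of the mitochondrial ribosome had a median of −0.30 in KO and −0.24 in WT over 18 genes, with 16 lower in atria in each. Fastkd2, an RNA-binding factor of large subunit assembly, was the 1 past 2-fold, at −1.31 in KO, and stood at −0.93 in WT. The mitochondrial aminoacyl-tRNA synthetases had −0.34 in KO and −0.35 in WT over 15 genes, with none past 2-fold. They ran from Yars2 at −0.91 in KO and −0.86 in WT to Wars2 at 0.10 and 0.03.

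The 2 groups most like the mitochondrial ribosomal proteins had chamber ratios closer to 0. Oxidative phosphorylation subunits, which include the partners of the proteins this ribosome makes, had a median chamber ratio of −0.33 in KO and −0.34 in WT over 79 genes, with 75 and 74 lower in atria. Ndufs5 of complex I was past 2-fold in both, at −1.20 in KO and −1.10 in WT, and Cox8a was the highest at 0.39 and 0.47. This list was drawn by the start of the symbol and is not made of subunits alone. It also took in Sdhaf4, an assembly factor of complex II, which was past 2-fold in KO only at −1.07. Cytosolic ribosomal proteins, of which 35 of 47 were above the floor, had −0.03 in KO and 0.08 in WT. Their 1 member past 2-fold was Rpl3l, the striated muscle form of ribosomal protein L3, at −3.21 in KO and −2.99 in WT. The list of cytosolic ribosomal proteins was also drawn by the start of the symbol. The lower quartile of its levels lay between 5.27 in KO atria and 5.80 in WT ventricles, around the floor. Set side by side, the middle 50% of mitochondrial ribosomal protein genes in WT (−0.65 to −0.36) and that of cytosolic ones (−0.10 to 0.17) did not overlap, and it overlapped that of the oxidative phosphorylation genes (−0.49 to −0.15). Differences between the lists were not tested. For KO over WT atria the median was −0.04 in oxidative phosphorylation subunits and −0.13 in cytosolic ribosomal proteins, where Rpl14 was past 1.5-fold at −0.65. In ventricles the medians were −0.01 in both groups, with none past 1.5-fold.

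**Figure D5:**
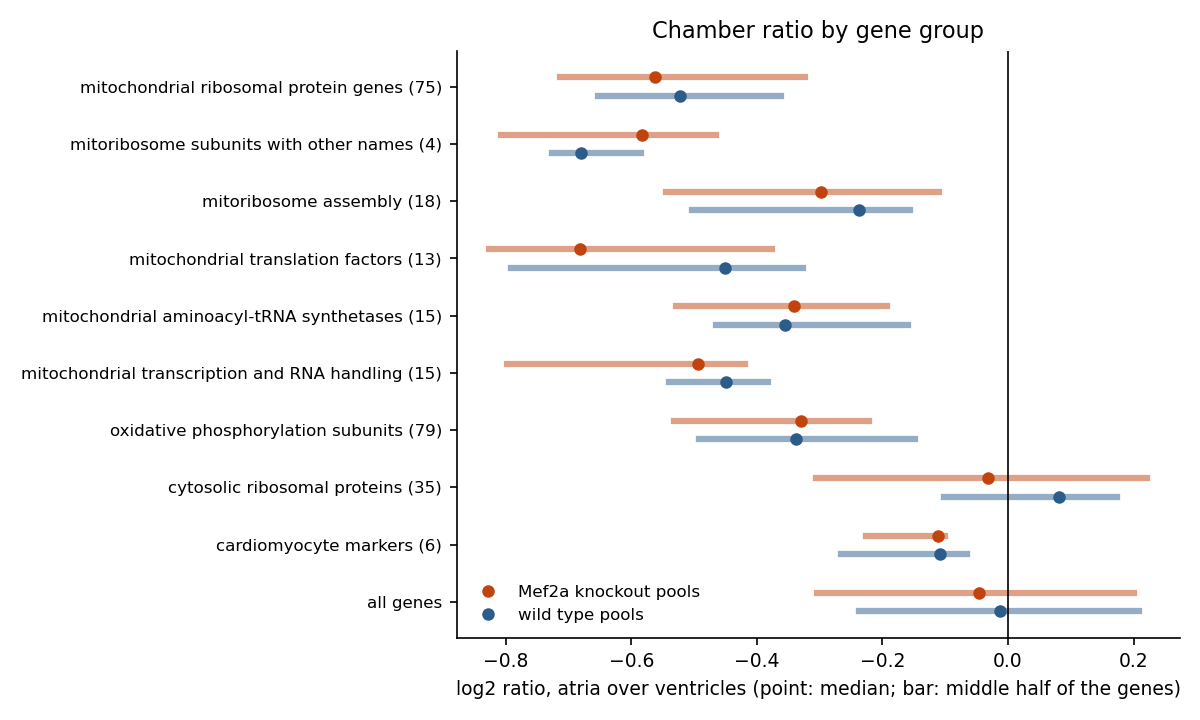
Median log2 ratio of atria over ventricles (points) with the middle 50% of the genes (bars) for 10 gene groups, KO orange above WT blue, with the number of genes above the floor in WT in brackets. Mitochondrial ribosomal protein genes lie at −0.56 in KO and −0.52 in WT, oxidative phosphorylation subunits near −0.33, and cytosolic ribosomal proteins and all genes near 0.

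Markers of cell types also differed between chambers. All 6 cardiomyocyte markers were lower in atria, with a median ratio of −0.11 in both genotypes, and Myl3, a ventricular and slow muscle light chain, was the 1 past 2-fold at −2.36 in KO and −2.08 in WT. Their summed linear intensity was 25349 in KO atria and 25942 in WT atria, against 31179 in KO ventricles and 31287 in WT ventricles. Without Myl3 the sums were 24516 in KO atria and 24960 in WT atria, against 26908 in KO ventricles and 27146 in WT ventricles. The other 5 markers stood at 12.09 or above, at or near the highest value of any gene on each array. That highest value was 12.54 in KO atria, 12.63 in WT atria, 12.65 in KO ventricles and 12.655 in WT ventricles. All 6 fibroblast markers were higher in atria, with sums of 6101 in KO and 8176 in WT atria, against 4519 in KO and 4835 in WT ventricles. The 5 epicardial and mesothelial markers summed to 1244 in KO and 1289 in WT atria, against 334 in KO and 301 in WT ventricles. Endothelial markers summed to 2495 in KO and 2380 in WT atria, against 2692 in KO and 2670 in WT ventricles. Of these 5 markers 2 were lower in atria in KO and 4 in WT. The 4 macrophage markers summed to 602 in KO and 598 in WT atria, against 499 in KO and 563 in WT ventricles. Smooth muscle and pericyte markers summed to 1387 in KO and 1544 in WT atria, against 1978 in KO and 2304 in WT ventricles, with 3 of 5 lower in atria in KO and 4 of 5 in WT. Of the adipose markers Adipoq, Plin1, Cidec and Lep were below the floor on every array. Fabp4, which endothelial cells also express, read 10.24 in KO atria and 10.51 in WT atria, against 10.89 in KO ventricles and 11.03 in WT ventricles. Most mitochondrial ribosomal protein genes thus differed between chambers in the direction of the cardiomyocyte markers and of Fabp4. The summed endothelial markers and the summed smooth muscle and pericyte markers went the same way, while single markers of both lists went the opposite way. Fibroblast and epicardial markers and the summed macrophage markers went the opposite way. The part of these cell types in the chamber ratio was not tested. In KO against WT atria all 6 fibroblast markers were lower, with a median log2 ratio of −0.47 and 3 past 1.5-fold (Lum, Pdgfra, Dpt), while the median of the ribosomal genes was −0.05.

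Promoters of the family were read for known motifs because most members were lower in the same chamber. RefSeq's promoter table of GRCm38.p6, which gives 250 bases before and 50 after each start, held 73 windows for 67 of the 76 genes. The ETS motif CCGGAAG, bound by factors such as GABPA, was in 26 windows (35.6%), against 8.86% of all 32851 windows and 11.6% of the 21263 windows of protein-coding genes. The YY1 motif AAGATGGCG was in 8 windows (11.0%), against 1.4% of all and 1.83% of protein-coding windows. The NRF1 motif GCGCATGCG was in 7 windows (9.59%), against 1.75% and 2.35%. The motif AAGGTCA of estrogen-related receptors was in 4 windows (5.48%), against 4.72% and 4.08%. The MEF2 motif was in 2 windows (2.74%), those of Mrpl1 and Mrpl48, against 3.19% and 2.74%. All were searched on both strands, no motif overlaps another in the stretches printed here, and a match is a description of letters and not a binding site.

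A pair of stretches shows such motifs in members past 2-fold, with motif letters in capitals, in GRCm38.p6. Mrps18a (chr17:46110854-46111003, plus strand) has the ETS motif 26 to 20 bases before its start. Mrpl36 (chr13:73330859-73331008, plus strand) has the YY1 motif as its reverse complement 31 to 23 bases before its start, with the reverse complement of the estrogen-related receptor motif just upstream. The YY1 motif of Mrps18a lies outside the stretch shown. Of the other members past 2-fold, Mrpl12 has the estrogen-related receptor motif elsewhere in its window, and Mrps6, Mrpl14, Mrpl45, Mrpl47 and Mrps7 have none of the searched motifs in theirs. Mrps34, also past 2-fold, had no window in the promoter table and was not searched.
Mrps18a: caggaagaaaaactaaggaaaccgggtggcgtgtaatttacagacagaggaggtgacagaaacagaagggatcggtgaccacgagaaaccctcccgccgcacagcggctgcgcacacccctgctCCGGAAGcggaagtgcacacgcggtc
Mrpl36: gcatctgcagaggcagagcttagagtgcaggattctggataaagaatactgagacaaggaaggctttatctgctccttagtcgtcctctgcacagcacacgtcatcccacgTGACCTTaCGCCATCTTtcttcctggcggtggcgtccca

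The median was lower in atria both with and without each motif, and the widest gap was that of YY1 in KO. With the ETS motif the median chamber ratio was −0.46 in KO and −0.48 in WT over 25 genes, and without it −0.57 and −0.54 over 41 genes. With the YY1 motif it was −0.82 in KO and −0.58 in WT over 8 genes, and without it −0.50 and −0.51 over 58 genes. With the NRF1 motif it was −0.46 in KO and −0.44 in WT over 7 genes, and without it −0.56 and −0.55 over 59 genes. The genes of these factors had ratios closer to 0. Gabpa stood at −0.18 in KO and −0.09 in WT, Yy1 at −0.13 and −0.05, and Nrf1 at −0.08 and 0.24. Among regulators of nuclear genes for mitochondrial proteins, 13 genes had a median of −0.20 in KO and −0.19 in WT. Perm1, a muscle regulator of oxidative genes, was the 1 past 2-fold, at −1.33 in KO and −1.39 in WT.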

How the data were processed

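Total RNA of 4 pools, each of 7 mice, was measured on 1 array per group. Values deposited by the authors are log2 intensities, 1 for each probe set, made with RMA and the affy package per the submitters' processing notes. The sources used here give no versions, array design or build. Of 21212 probe sets, 18786 had 1 symbol in the platform annotation, updated through RefSeq (GRCm38.p6): 18775 by gene number, 4 by accession, 7 kept. An unnamed probe set numbered as Mrpl27-ps was left out. Each ratio is a difference of 2 log2 values, called past 1.5-fold (genotype) or 2-fold (chamber). Named were members past the fold, the 5 highest and lowest per comparison, members never above the floor and, of other lists, those past the fold or at the extremes; other factors are given as values. Members and lists were chosen with earlier results of these data known. Counting was tested on simulated data. Alternatives changed the floor, scaling, fold, subunit assignment and probe sets. Python 3.11.15, pandas 2.3.3, numpy 2.4.6 and statsmodels 0.14.6 (lowess fraction 0.3) were used. With 1 array per group, the number of arrays limits the precision.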

Additional observations from a re-analysis of the deposited data

How the results depend on the processing

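The chamber medians kept their direction under every alternative run: that of the mitochondrial ribosomal protein genes lay between −0.65 and −0.47 in KO and between −0.55 and −0.47 in WT over the scalings and without overlapping genes. Over the scalings 69 to 73 members were lower in atria in KO and 70 to 72 in WT, and single ratios near 0 turned, among them under median centring Mrpl48 in KO to −0.09 and Mrpl52 in WT to −0.01, and Mrps21 in KO to 0.07 under quantile normalization and 0.12 under lowess centring. Those past 2-fold lower in atria were 10 in KO under median centring, which moved the median of all genes to −0.14. No share of all genes is given beside this count. At a 1.5-fold limit 34 were lower in KO (10.1 percent of all genes) and 29 in WT (7.82 percent). Without members that overlap another gene, an alternative added after seeing the data, 3 were lower and 0 higher in KO, and 2 were lower and 0 higher in WT. Genotype medians were near 0 and changed sign: in atria to 0.022 under quantile normalization and 0.0034 under lowess centring, and in ventricles to −0.015, −0.012 and, without overlapping genes, −0.018. Large minus small turned to −0.0018 in atria at the 75th percentile floor, where 0 members were lower past 1.5-fold, and to 0.037 in ventricles without overlapping genes. At a 1.2-fold limit 3 members were higher (8.69 percent of all genes) and 8 lower (15.1 percent) in KO atria, and 3 were higher in KO ventricles (4.06 percent). The cause of these shifts was not tested. An additive fit of genotype and chamber, which would leave 1 residual degree of freedom, was not run.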
